A study of Mus musculus with 6 samples.

Results

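The genes described here are those that prepare and start DNA replication: MCM2 to MCM7, CDC6, CDT1, ORC1 and CDC45. They were taken as every probe set of the HG-U133A array whose only annotated symbol was one of these names, which gave 16 probe sets for all 10 genes, out of 11941 genes that the array annotation names alone on a probe set. The samples are labelled as C2C12, a line of mouse muscle precursors, and their RNA was measured on 6 arrays: 3 of myoblasts and 3 of myotubes, the multinucleated fibres that myoblasts form after they stop dividing. The myotubes were cultured in 2.5% horse serum by the labels, which give no medium for the myoblasts, no treatment, no time of differentiation and no sign of whether replicate arrays are separate cultures. P-values therefore cover the spread between arrays alone, and that spread may be technical. The probes match human sequences but the organism is labelled mouse, and genes carry their human symbols here. How well each probe set binds mouse RNA was not tested.

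A cell licenses its origins of replication once per division. ORC1, a subunit of the origin recognition complex, marks the origin, CDC6 and CDT1 bring in the ring formed by MCM2 to MCM7, and the ring is left on DNA in an inactive state. In S phase CDC45 and the GINS complex join the ring and turn it into the moving helicase, while geminin and the destruction of CDT1 prevent a second loading. These genes are textbook targets of the E2F factors, which the RB family holds in check, and myotubes are a standard example of cells that have left the cycle for good.

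The promoters of these genes are shown because E2F-type words are frequent in them. RefSeq windows of 300 bases, 250 before and 50 after the annotated start site of the mouse gene (GRCm38.p6), were at hand for 9 of the 10 genes, with 2 windows for Mcm7 and Mcm4 not matched. The words searched on both strands were TTTCCCGC, TTTCGCGC, TTTGCCGC and TTTGGCGC, which are forms of the E2F consensus, and CCAAT, the word bound by NF-Y. An E2F-type word lay in a window of 7 of the 9 genes, Mcm3, Mcm5, Mcm6, Mcm7, Cdc6, Cdt1 and Orc1, while 2.6% of all 27025 genes in the table had one (2.26% of 32851 windows). CCAAT lay in a window of 7 of the 9 genes, against 41.1% of all genes (37.4% of windows). These matches are a description of letters and do not show binding. In the following windows the capitals mark both kinds of word. Mcm5, Mcm6 and Mcm7 are printed as genes with E2F-type words that fell in myotubes. Mcm2 fell and has no E2F-type word in this window, and Cdt1 has such a word and was not called. Of the genes with such a word that are not printed, Mcm3 and Cdc6 were not called either, and Orc1 was not tested. Whether the words go with the fall was not tested. The windows are chr8:75109259-75109558 on the plus strand for Mcm5, chr1:128359656-128359955 on the minus strand for Mcm6, chr5:138171834-138172133 on the minus strand for Mcm7, chr6:88898731-88899030 on the minus strand for Mcm2 and chr8:122567765-122568064 on the plus strand for Cdt1, each printed 5′ to 3′ along the gene.
Mcm5: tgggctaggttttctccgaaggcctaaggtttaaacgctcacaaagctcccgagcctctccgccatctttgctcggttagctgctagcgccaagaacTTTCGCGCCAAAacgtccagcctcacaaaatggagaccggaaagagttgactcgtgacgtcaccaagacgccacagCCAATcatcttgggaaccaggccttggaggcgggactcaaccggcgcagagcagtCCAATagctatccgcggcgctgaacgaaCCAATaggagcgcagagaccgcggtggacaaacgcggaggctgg
Mcm6: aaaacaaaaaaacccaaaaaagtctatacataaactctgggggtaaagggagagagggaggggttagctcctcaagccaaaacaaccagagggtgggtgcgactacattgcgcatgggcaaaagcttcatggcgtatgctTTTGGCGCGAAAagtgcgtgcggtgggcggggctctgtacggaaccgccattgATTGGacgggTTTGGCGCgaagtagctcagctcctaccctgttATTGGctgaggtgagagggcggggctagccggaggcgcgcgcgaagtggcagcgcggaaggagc
Mcm7: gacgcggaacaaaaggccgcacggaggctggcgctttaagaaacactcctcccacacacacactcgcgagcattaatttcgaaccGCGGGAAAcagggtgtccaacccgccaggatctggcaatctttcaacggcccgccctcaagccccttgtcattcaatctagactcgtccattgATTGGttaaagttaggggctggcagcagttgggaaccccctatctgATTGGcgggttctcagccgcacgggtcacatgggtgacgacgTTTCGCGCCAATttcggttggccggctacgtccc
Mcm2: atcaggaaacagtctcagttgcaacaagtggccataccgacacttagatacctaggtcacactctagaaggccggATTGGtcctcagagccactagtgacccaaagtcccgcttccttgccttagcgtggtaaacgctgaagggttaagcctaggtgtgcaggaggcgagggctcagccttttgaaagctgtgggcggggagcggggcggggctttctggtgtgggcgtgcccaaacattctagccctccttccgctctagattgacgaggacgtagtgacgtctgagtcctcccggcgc
Cdt1: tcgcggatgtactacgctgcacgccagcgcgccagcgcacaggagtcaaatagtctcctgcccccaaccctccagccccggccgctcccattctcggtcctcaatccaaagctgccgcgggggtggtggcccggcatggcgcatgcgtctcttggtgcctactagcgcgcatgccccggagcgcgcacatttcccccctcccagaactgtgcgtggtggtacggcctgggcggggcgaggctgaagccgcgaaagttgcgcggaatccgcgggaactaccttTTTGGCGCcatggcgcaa

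The Mcm5 window holds a pair of E2F-type words on opposite strands that share bases, beginning 153 and 149 bases before the start site, and 3 CCAAT words. The Mcm6 window holds the same arrangement of overlapping words at 110 and 106 bases before the start site, and another E2F-type word at 47 bases. In Mcm7 the word 17 bases after the start site shares bases with a CCAAT word, and the other lies 165 bases before it. The Cdt1 word lies 33 bases after the start site.

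**Figure D1:**
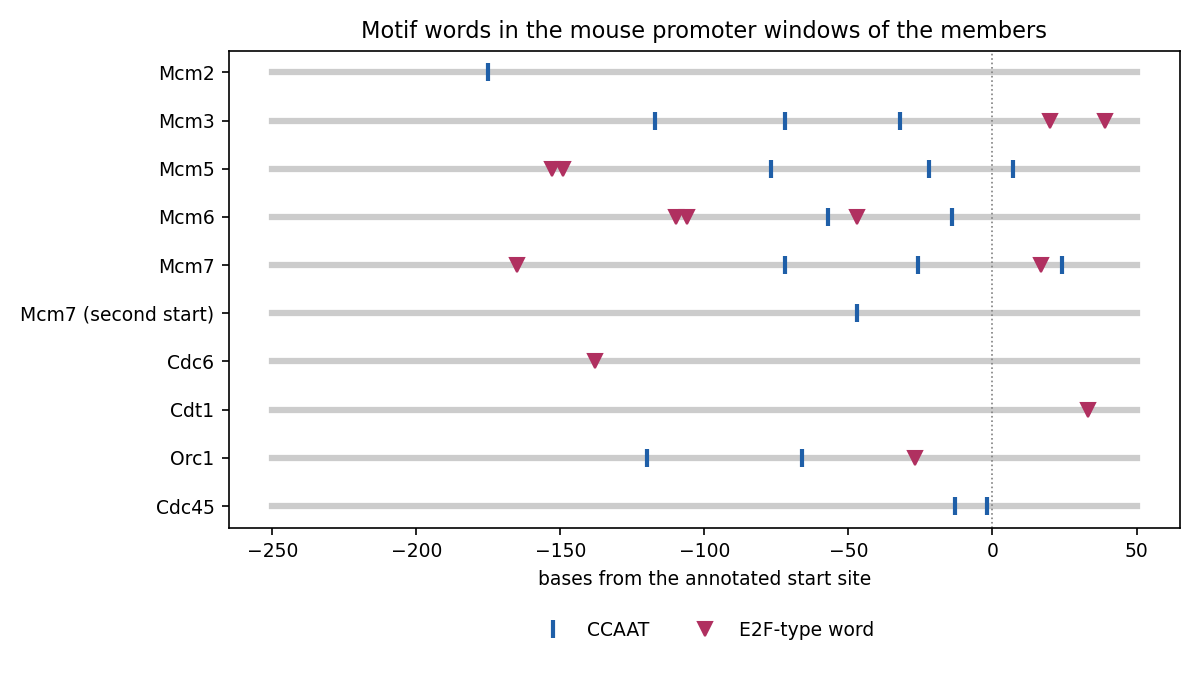
Positions of the E2F-type words (triangles) and CCAAT words (bars) in the 10 mouse promoter windows of 9 genes; the horizontal axis is the distance in bases from the annotated start site. Windows of Mcm2, the second Mcm7 start and Cdc45 hold no E2F-type word, and the windows of Cdc6 and Cdt1 hold no CCAAT word.

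Signals are MAS5 values, 1 per probe set and array on a linear scale, and cannot be set against those of another probe set. As a mark of background, 27 bacterial control probe sets were taken as unspiked by their names, which was not tested. Their highest signal ranged from 251.5 to 1040 over the 6 arrays (251.5 to 919.9 on myoblast arrays, 520.1 to 1040 on myotube arrays). Myoblast arrays 2 and 3 stood apart: their log2 signals correlated at 0.988 over the probe sets, while every other pair within a group lay between 0.889 and 0.912. Myotube array 3 correlated more with these 2 arrays (0.92 and 0.924) than with myotube arrays 1 and 2 (0.903 and 0.908). The other pairs across the groups lay between 0.831 and 0.909. The spike-in signal of myoblast arrays 2 and 3, a geometric mean of 3539 and 4275, was below that of the other arrays (12320 to 71439). Their ribosomal RNA control signal was lower too (699 and 249, against 5983 to 60141). By the laboratory codes in the run records, myoblast array 1 belongs to 1 consecutive series with the 3 myotube arrays, and myoblast arrays 2 and 3 to another. The source field reads myoblast for all 6 arrays, so groups follow the titles. Myoblast array 3 is titled Grow (G3), with no cell stage, and was placed by a description it shares with myoblast arrays 1 and 2, which says myoblast but numbers replicates 1 and 2 only. Whether it is a sample separate from myoblast array 2 is not given, and results with both averaged as 1 sample are given below. The run records number the myoblast arrays 3, 1 and 2 where the titles give 1, 2 and 3. Titles were used here. Scan day and chip lot each separate myotubes from myoblasts completely, so neither can be told apart from the group.

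The labelled cell types were checked against fixed marker lists. Of 13 muscle lineage genes 8 were tested and 5 rose in myotubes, the troponins TNNI1, TNNC1 and TNNT1, the embryonic myosin MYH3 and the cardiac actin ACTC1. Among all tested probe sets 4.85% were called higher and 6.26% lower. The muscle markers DES, MYOD1, MYF5, MYOG, MYF6 and CKM did not lie above the unspiked controls on all arrays of either group. All 6 proliferation genes, MKI67, TOP2A, CCNB1, CCNA2, CDK1 and BUB1, had a probe set that fell, although MKI67 fell on 1 of 4. Of 10 fibroblast genes 8 rose, by 10 of 18 tested probe sets. Of these genes DCN, THY1, COL1A1 and COL1A2 also had tested probe sets that did not pass. The summed signal of the 10 fibroblast genes, over the brightest probe set of each gene, ranged from 117273 to 263575 on myoblast arrays and from 319742 to 533078 on myotube arrays, with DPT not above control. Most of it came from the brightest probe sets of COL1A1 and COL1A2, neither of which passed the test (limma adjusted p = 0.0517 and 0.0998). The sum of the other 8 genes was 20020 to 22133 and 60931 to 65248. Since signals of different probe sets cannot be set against each other, these sums and shares describe signal and not amounts of RNA. In bulk samples fewer cells of a type and less RNA per cell cannot be told apart. The adipocyte genes ADIPOQ, FABP4, LEP and PLIN1 did not lie above the unspiked controls on all arrays of either group. The same held for the endothelial genes CDH5, TEK and VWF and the leukocyte genes CD14, LYZ and PTPRC. Of these, FABP4, TEK and VWF lay above the control on some arrays. The remaining gene of each of these lists, CIDEC, PECAM1 and CD3E, was above control on all arrays of at least 1 group and did not pass the test. The part of other cell types, and of the spike-in and ribosomal RNA differences, in the results below was not tested.

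Setting myotubes against myoblasts asks how the replication genes differ between dividing and differentiated cells. MCM2, MCM4, MCM5, MCM6 and MCM7, 5 of the 6 genes of the helicase ring, fell in myotubes by at least 1 probe set, between 2.28-fold (MCM6) and 6.20-fold (MCM7). MCM3 and the loaders CDC6 and CDT1 did not pass the test. ORC1 and CDC45 were too dim to be tested. Of the 16 probe sets 13 passed the filter on low signals, covering 8 of the 10 genes, and 6 of the 13 were called lower and 0 higher by limma at an adjusted p under 0.05, while 6.26% of all 13300 tested probe sets were called lower and 4.85% higher. At an unadjusted p under 0.05, 10 of the 13 were lower, against 14.7% of all tested. The filter keeps a probe set that is dim in myotubes only if it is bright in myoblasts, so these counts do not stand for all members. Without the filter 7 of 16 were called lower, against 3.09% of 22166 probe sets. The median log2 change of the 13 was -1.21, and that of all tested probe sets was 0.08. These medians rest on the same filter. Without it the median was -1.26 for the 16, against 0.189 for all 22166. In 11 of the 13 tested probe sets every myotube signal lay below every myoblast signal, a pattern found in 15.5% of all tested. Lists and members had been chosen with earlier results of these data known.

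**Figure D2:**
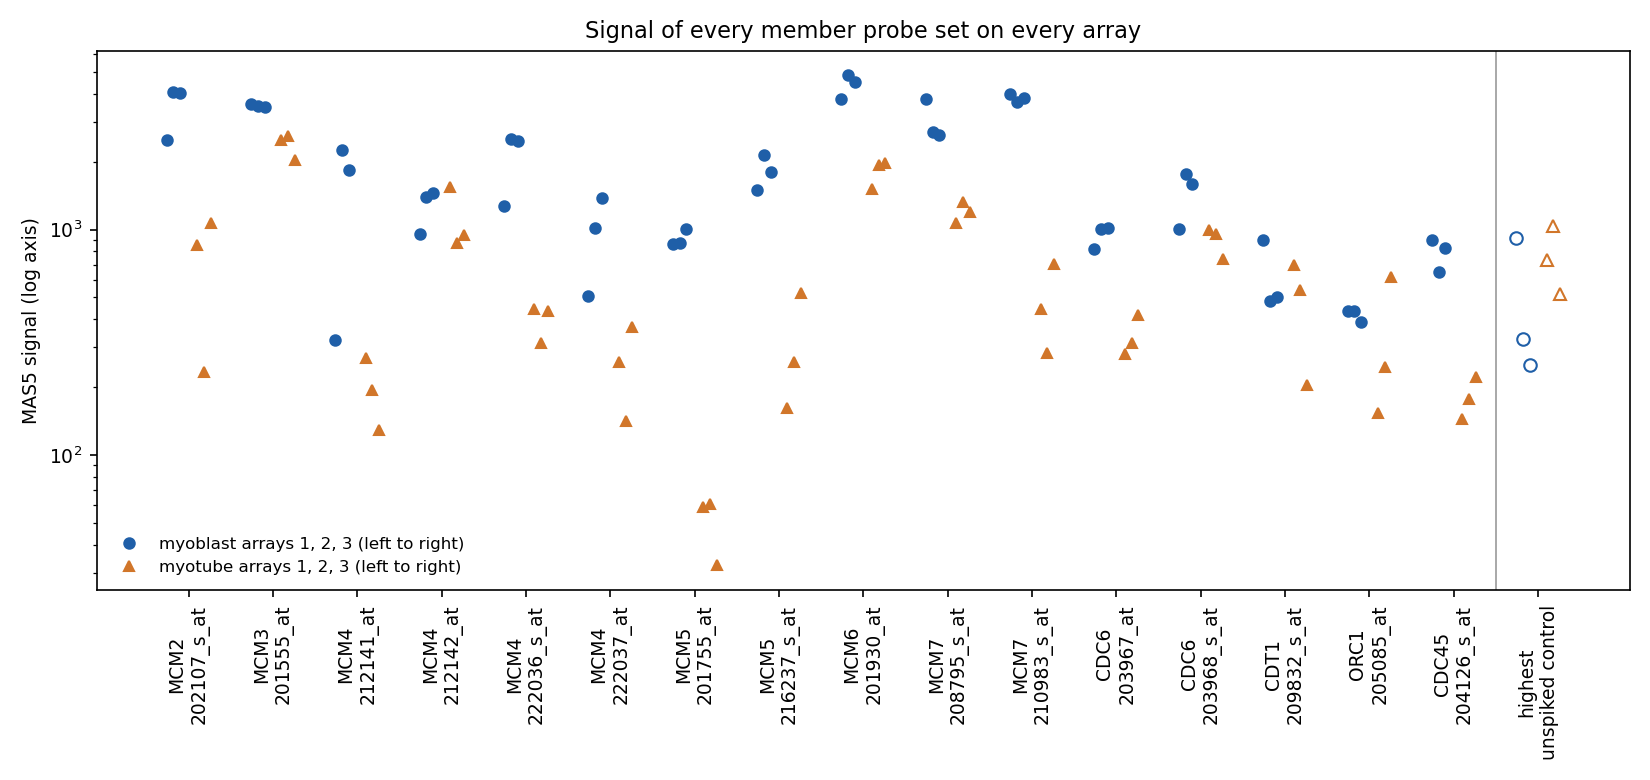
MAS5 signal on a log axis for each of the 16 probe sets, with the 3 myoblast arrays as circles and the 3 myotube arrays as triangles, and at the right the highest unspiked control of each array as open symbols. The groups overlap for MCM4 212142_at, CDT1 and ORC1 and are separate for the other 13 probe sets, of which 11 were tested. Among all 13300 tested probe sets 15.5% were separate in this direction, and no share is given for untested ones.

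MCM7, a core subunit of the ring, had the largest fall. Its probe set 210983_s_at gave signals of 4015, 3702 and 3821 on myoblast arrays 1, 2 and 3 and of 443, 283 and 704 on myotube arrays 1, 2 and 3. The groups were far apart and the myoblast arrays lay close together. The log2 change was -2.63 ± 0.28 (SE, n = 3 per group, on the log2(signal + 197) scale as all changes here; limma adjusted p = 0.000678), with a 95% confidence interval from -3.26 to -2.01. Signals on 2 of the 3 myotube arrays lay below their control, and with these raised to it the fold was 4.73. The other MCM7 probe set, 208795_s_at, gave 3803, 2712 and 2640 in myoblasts and 1070, 1327 and 1193 in myotubes, all of them above the controls. It fell 2.31-fold (log2 -1.21 ± 0.23, interval -1.72 to -0.70, adjusted p = 0.0104). The intervals of the 2 probe sets do not overlap, so they differed in the size of the fall and not in its direction.

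MCM2 gave 2495, 4072 and 4032 in myoblasts and 852, 233 and 1065 in myotubes. Myotube array 2 was the lowest of all 6, and it alone lay below its control. The gene fell 4.40-fold (log2 -2.14 ± 0.40, interval -3.02 to -1.26, limma adjusted p = 0.00915), and the fold was 3.51 with that signal raised to the control.

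MCM5 has 2 probe sets. By 216237_s_at the signals were 1499, 2150 and 1799 in myoblasts and 162, 257 and 522 in myotubes, a 4.08-fold fall (log2 -2.03 ± 0.35, interval -2.81 to -1.25, limma adjusted p = 0.00677). Myotube arrays 1 and 2 lay below their controls, and the fold with these raised was 2.44. The other, 201755_at, was left out by the filter: it gave 865, 869.5 and 1005 in myoblasts and 58.7, 60.5 and 32.3 in myotubes. Its groups were separate, and all its myotube signals and that of myoblast array 1 lay below the controls. Fitted without the filter it was called lower (log2 -2.17 ± 0.37, limma adjusted p = 0.00714), while the bound with dim signals raised was 1.24-fold.

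MCM6 gave 3802, 4843 and 4499 in myoblasts and 1507, 1939 and 1985 in myotubes, with no signal below a control on any array. It fell 2.28-fold (log2 -1.19 ± 0.20, interval -1.64 to -0.75, limma adjusted p = 0.00578). MCM6 and MCM7 208795_s_at are thus the 2 called probe sets with every signal above the control of its array.

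The 4 probe sets of MCM4 did not give 1 answer. By 222036_s_at the signals were 1270, 2537 and 2478 in myoblasts and 446, 313 and 437 in myotubes, a fall (log2 -1.90 ± 0.34, interval -2.64 to -1.15, limma adjusted p = 0.00743). Since every myotube signal lay below its control, the fold was at least 2.72 against the controls. By 212141_at they were 323, 2255 and 1847 against 269, 194 and 129, and by 222037_at 507, 1021 and 1386 against 259, 142 and 369. In both, myoblast array 1 lay nearer to the myotubes than the other myoblast arrays did, and neither passed (log2 -1.82 ± 0.55, limma adjusted p = 0.0598, and -1.32 ± 0.41, adjusted p = 0.0652). Without myoblast array 1 both were called, and with the series as a block their changes were -0.42 and -0.67. The last, 212142_at, gave 959.5, 1392 and 1447 in myoblasts and 1545, 871 and 951 in myotubes, so that the groups overlapped (log2 -0.17 ± 0.30, interval -0.84 to 0.50, adjusted p = 0.73). The interval of 212142_at lies above that of 222036_s_at, and whether they detect the same transcripts was not tested.

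MCM3 had the smallest change of the ring genes when each gene is taken by its strongest change. Its signals were 3596, 3551 and 3504 in myoblasts and 2490, 2603 and 2041 in myotubes, all above the controls. The groups did not overlap and the myoblast SD was 45.8, yet the change of -0.55 ± 0.19 did not pass (interval -0.96 to -0.14, limma adjusted p = 0.0837). Its interval lies above those of MCM2, MCM4 222036_s_at, MCM5 216237_s_at and MCM7 210983_s_at, though the differences themselves were not tested.

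The loader CDC6, an ATPase that opens the way for the ring, was measured by 2 probe sets. By 203967_at it gave 821, 1008 and 1016 in myoblasts and 280, 315 and 419.9 in myotubes, separate groups with a change of -1.10 ± 0.33 that just missed the threshold (interval -1.82 to -0.38, limma adjusted p = 0.0557). All myotube signals and that of myoblast array 1 were below their controls. By 203968_s_at it gave 1004, 1759 and 1596 against 997, 960 and 740, where myoblast array 1 and myotube array 1 were almost equal (log2 -0.57 ± 0.30, interval -1.22 to 0.09, adjusted p = 0.222).

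CDT1, the partner of CDC6 in loading, gave 897, 480.4 and 504 in myoblasts and 695, 539 and 205 in myotubes. The groups overlapped, and the change was -0.33 ± 0.41 (interval -1.24 to 0.59, limma adjusted p = 0.613). All its myotube signals and that of myoblast array 1 lay below their controls, and the interval leaves room for a fall of more than 2-fold. ORC1, the origin mark, gave 437, 437 and 389.6 in myoblasts and 154, 247 and 613 in myotubes. Its highest and its lowest signal were both in myotubes, and it was left out by the filter. CDC45, the helicase activator, was left out too, with 895, 649.5 and 828 in myoblasts and 145, 176 and 222 in myotubes. Its groups were separate, every myotube signal lay below its control, and without the filter the change was -1.38 ± 0.39 (limma adjusted p = 0.0626), with a bound of 1.07-fold. It was tested and called lower with a pseudocount of 800 (adjusted p = 0.0339) and without myotube array 3 (0.0386), and was not called without myotube array 1 or 2 (0.0745 and 0.0771).

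**Figure D3:**
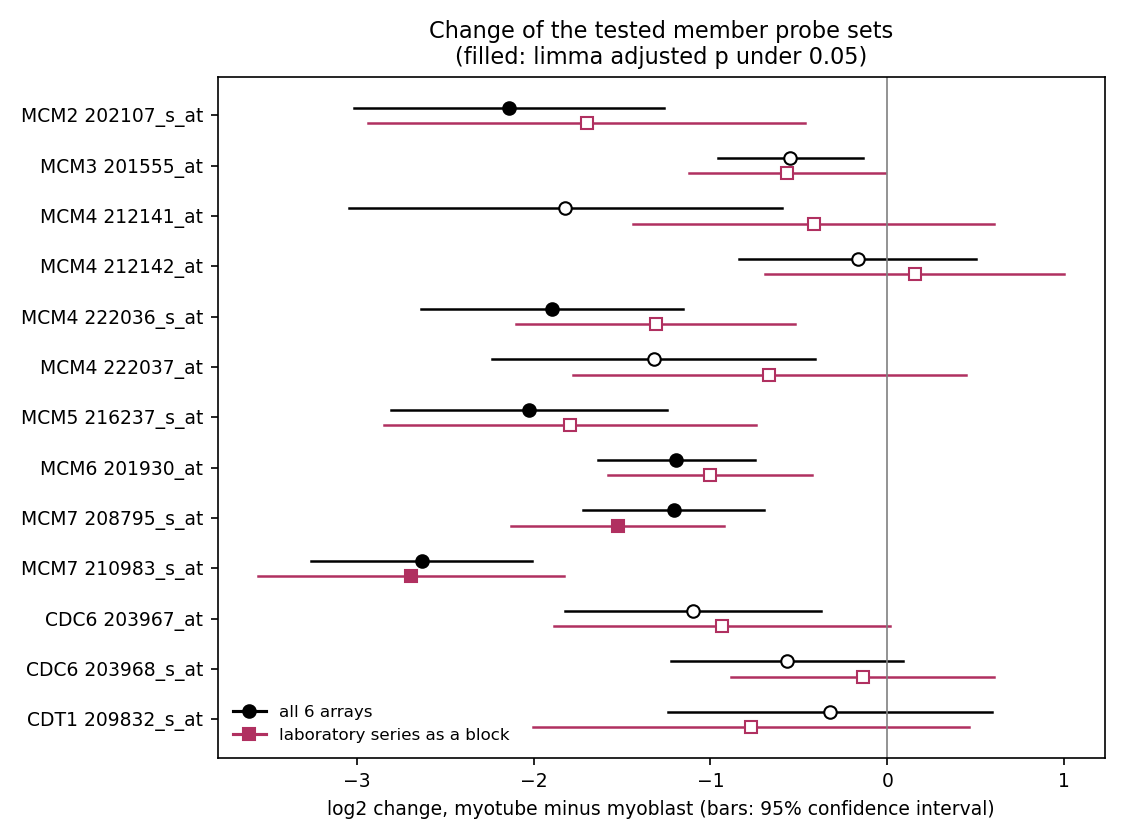
Log2 change (myotube minus myoblast) of the 13 tested probe sets with its 95% confidence interval, fitted on all 6 arrays (circles) or blocked by laboratory series (squares); filled symbols have an adjusted p under 0.05. With all arrays 6 symbols are filled, and with the block only the 2 of MCM7.

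The result depended on which myoblast arrays were used. Myoblast array 1 had the lowest of the 3 myoblast signals in 10 of the 16 probe sets and the highest in 5. No shares over all probe sets are given for these counts. The median of its difference from the mean of the other 2 was -0.27 on the log2 scale over the 16, against 0.04 over all tested probe sets. The 16 include 3 untested probe sets, so the 2 medians cover unlike sets. Myoblast array 1 was still above all 3 myotube arrays in 12 of the 13 tested probe sets, where 26.3% of all tested showed that. With the laboratory series as a block, in which the change comes from the difference of the 3 myotube arrays from myoblast array 1, 12 of 13 changes were below 0 and 2 probe sets were called lower, both of MCM7 (limma adjusted p = 0.0115 for 210983_s_at and 0.0257 for 208795_s_at), while 1.00% of all tested probe sets were. At an unadjusted p under 0.05, 7 of 13 were lower, against 7.70% of all tested. MCM2, MCM4 222036_s_at, MCM5 216237_s_at and MCM6 were not called there, with changes of -1.70, -1.31, -1.79 and -1.003 and adjusted p of 0.152, 0.0932, 0.0857 and 0.0822. With myoblast arrays 2 and 3 averaged as 1 sample the same 6 probe sets were called as with all arrays (limma adjusted p from 0.00186 to 0.0462), where 2.44% of all tested were called lower. In the first series alone 1 of 13 was called, MCM7 210983_s_at (limma adjusted p = 0.0306), where 0.436% of all tested were. Each of the 6 called probe sets stayed called when any 1 array was left out, and leaving out myoblast array 1, 2 or 3 gave 9, 6 and 6 called member probe sets, where 12.3%, 2.38% and 2.25% of all tested were called lower. Leaving out myotube array 1, 2 or 3 gave 7 each time, where 2.59%, 2.03% and 7.37% were.

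Of 11 other genes of origin recognition and licensing 10 were on the array and all 10 were tested, by 13 probe sets with a median change of -0.41, and 1 gene fell. That is 7.69% of the 13 probe sets, near the 6.26% of all tested that were called lower, and so no result about the list. The gene was GMNN, or geminin, the inhibitor of CDT1, with myoblast signals of 2173, 2709 and 3782 and myotube signals of 1135, 1112 and 943 (log2 -1.26 ± 0.25, limma adjusted p = 0.0129). The other 9 genes, among them ORC2 to ORC6, did not pass, with changes from -1.13 (MCM3AP) to 0.28 (another probe set of the same gene). ORC3 and ORC4, subunits of the complex that ORC1 belongs to, had changes of 0.06 ± 0.28 and -0.003 ± 0.25.

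Of 14 genes of origin firing and helicase activation 8 were tested, by 8 probe sets with a median of -1.16, and 4 fell, where 6.26% of all tested probe sets were called lower. All 4 passed the filter through their myoblast signals alone, so neither the count nor the median stands for the list. Without the filter the median of all 18 probe sets was -0.485, against 0.189 for all 22166, and 5 genes were called lower, against 3.09% of probe sets. GINS2, a subunit of the GINS complex that joins CDC45 on the ring, gave 964, 2147 and 1944 in myoblasts and 111, 119.5 and 49.6 in myotubes (log2 -2.64 ± 0.39, limma adjusted p = 0.00313). GINS1, of the same complex, gave 895, 1904 and 1493 against 90.5, 349 and 294 (-1.89 ± 0.40, adjusted p = 0.0156). MCM10, which helps start the helicase, gave 944, 1280 and 1375 against 256, 263 and 104 (-1.80 ± 0.36, adjusted p = 0.012). DBF4, the activating subunit of the CDC7 kinase, gave 767, 1740 and 1453 against 192, 371 and 485 (-1.45 ± 0.39, adjusted p = 0.0381). In all 4 every myotube signal lay below its control, so that the folds against the controls were at least 2.17, 1.86, 1.61 and 1.70. For GINS1 and DBF4 the signal of myoblast array 1 lay below its control too. CDC7 itself gave 1015, 1024 and 894 against 865, 761 and 760.3, a change of -0.24 ± 0.28 that did not pass. The remaining 3 tested genes, TOPBP1, DONSON and TIMELESS, had changes of -0.86, -0.63 and 0.20. The other 6 genes, GINS3, GINS4, TIPIN, WDHD1, CLSPN and RECQL4, were too dim to be tested. Without the filter GINS3 218719_s_at and TIPIN were called lower (log2 -1.83 and -1.76, limma adjusted p = 0.0187 and 0.0254) and DBF4 was not (adjusted p = 0.064). The other GINS3 probe set, 45633_at, was not called either (log2 0.02, limma adjusted p = 0.983). The groups of GINS4 and CLSPN were separate, in opposite directions, and neither passed (log2 -1.16 and 0.76, adjusted p = 0.103 and 0.118). Every myotube signal of GINS3 218719_s_at, GINS4 and TIPIN and every signal of CLSPN lay below its control.

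Of 6 genes of CDT1 turnover all were tested, by 12 probe sets with a median of -0.54, and 2 fell by 1 probe set each, or 16.7% of the 12 against 6.26% of all tested. DTL, the receptor that directs the CUL4 ligase to CDT1, gave 1066, 1566 and 1765 in myoblasts and 17.4, 449 and 305 in myotubes (log2 -1.99 ± 0.45, limma adjusted p = 0.0206, at least 1.95-fold against the controls). PCNA, the sliding clamp on which CDT1 is marked for destruction, gave 5515, 5564 and 5181 against 2591, 1400 and 2216, all above the controls (-1.35 ± 0.23, adjusted p = 0.00587). CUL4A, CUL4B, DDB1 and SKP2, parts of the ligases, did not pass, with changes from -1.30 to 0.16.

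Across the 3 lists 7 genes were called lower and 0 higher, where 6.26% and 4.85% of all tested probe sets were. By list, in the order above, 7.69%, 50% and 16.7% of the tested probe sets were called lower. Every myotube signal of GINS1, GINS2, MCM10, DBF4 and DTL lay below its control. They passed the filter through their myoblast signals, so the count does not stand for the lists. Without the filter 8 genes were called lower, against 3.09% of all probe sets. With the series as a block 0 were called by limma, where 1.00% of all tested were called lower (6 genes lower at an unadjusted p under 0.05, where 7.70% of all tested probe sets were), with changes of -2.01 for GINS2 (adjusted p = 0.0543), -1.37 for PCNA (0.0683) and -0.91 for GMNN (0.161). Leaving out myoblast array 1, 2 or 3 gave counts of 14, 2 and 1, where 12.3%, 2.38% and 2.25% of all tested probe sets were called lower. PCNA stayed called whichever array was left out. GINS2 was called in every such fit that tested it, and without myoblast array 2 or 3 it was too dim to be tested. MCM10 and DTL were lost without myoblast array 2 or 3 (limma adjusted p up to 0.0915). GINS1 was lost without myoblast array 2 or 3 or myotube array 1 (up to 0.0949), GMNN without myoblast array 3 or myotube array 2 (up to 0.104) and DBF4 without myoblast array 2 or 3 or myotube array 1 or 2 (up to 0.209).

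**Figure D4:**
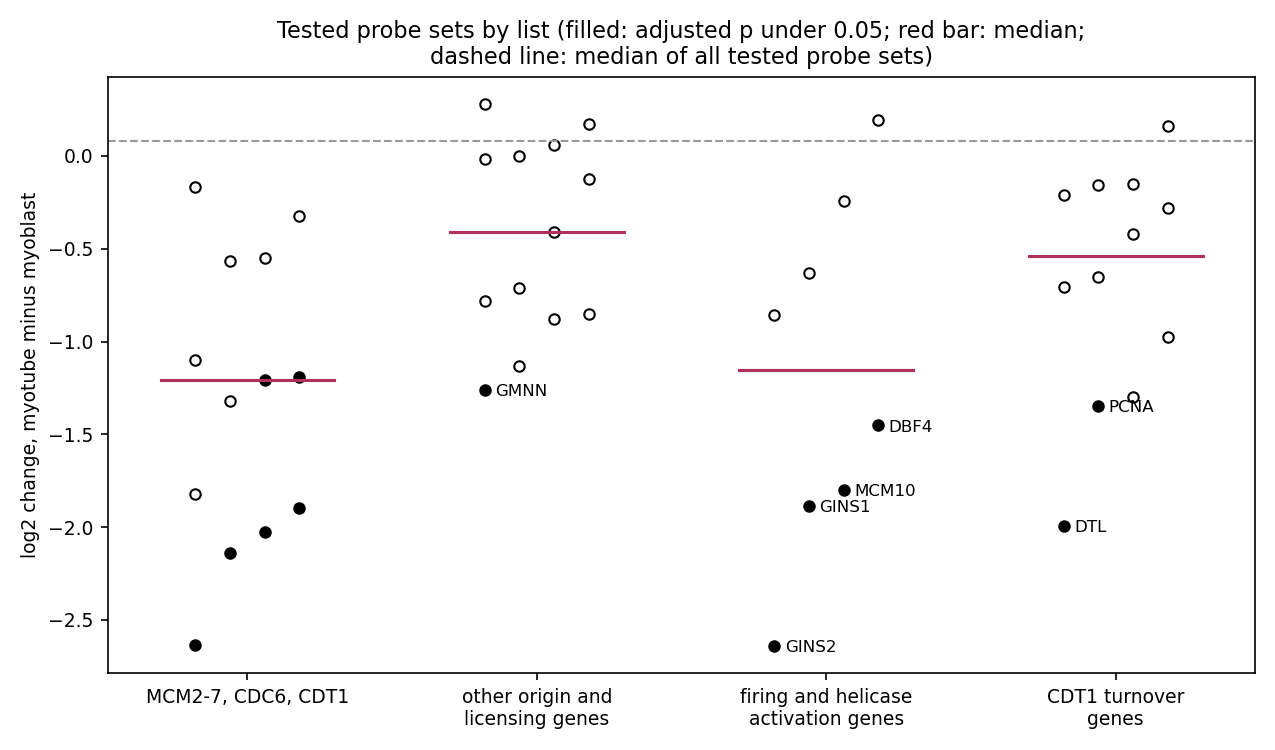
Log2 change (myotube minus myoblast) of each tested probe set, for the members and the 3 lists of other genes; filled points have a limma adjusted p under 0.05, red bars are medians and the dashed line is the median of all tested probe sets. Medians lie at -1.21, -0.41, -1.16 and -0.54 from left to right, and called genes outside the members are named.

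The genes whose profile over the 6 arrays was nearest to the mean profile of the 8 tested members, each by its brightest probe set, were JPT2, VEGFC, NCKAP1, SLC25A5, PNP and ELOVL6. Likeness was the root mean square distance between log2 profiles, each centred on its own mean, and lay between 0.068 and 0.092 for these 6, against a median of 0.627 over 8137 genes. The mean profile stood at 0.41, 0.59 and 0.54 on myoblast arrays 1, 2 and 3 and at -0.43, -0.60 and -0.51 on myotube arrays 1, 2 and 3. The 8 member probe sets that formed this mean lay between 0.182 (MCM6) and 0.732 (MCM2) from it. The 6 genes were picked for a small distance, so the 2 ranges are not a comparison.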

How the data were processed

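Biotin-labelled total RNA was read on 6 HG-U133A arrays. The authors deposited an intensity for each probe set, 1 signal on a linear scale, computed with MAS5 according to the submitters' processing notes, in a version not given here. After trimming 2 percent at each end the signals averaged 1500.4 to 1500.5 on every array. Groups and replicate numbers follow the titles, except that the description placed myoblast array 3. Of 22283 probe sets, 68 controls and 49 sex-linked ones were dropped. The platform annotation of 2016 names 1 gene for 19065 probe sets, several for 1043 and none for 2107, and only the first kind was named.

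The 25th percentile of the table, 197, was added to each signal before log2, so changes of dim genes are understated. The dimmest 40 percent of probe sets by mean were not tested. The 13300 others entered limma 3.58.1 under R 4.3.3 with statmod 1.5.0 (a linear model per probe set, moderated with a trend, two-sided tests), adjusted by Benjamini-Hochberg over all of them at a threshold of 0.05. Bounds compare mean log2 signals with dim signals raised to the highest unspiked control of their array. The fit was tested on simulated data. Alternatives varied the pseudocount, filter, scaling (quantile, 75th percentile), variance model, blocking (replicate number, laboratory series, chip lot), choice of arrays and choice of probe set per gene. The rule for named genes took all members, all called genes of 3 lists and the 6 nearest profiles, with the rest of each list by counts and range. Uncalled or untested list genes and single markers that are also named were chosen after their values were seen. Members and lists were chosen with earlier results of these data known. Motif words were searched with Python 3.11.15, and figures drawn with matplotlib 3.10.9.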

Additional observations from a re-analysis of the deposited data

How the results depend on the processing

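Of the counts, that of member probe sets called lower, 6 with all arrays, was 2 with the laboratory series as a block and 1 in the first series alone, and 5 to 8 in the other settings with all arrays. Leaving out 1 array at a time it was 6 to 9. The count of member genes, 5, was 1 in both series settings and 4 to 6 otherwise. The count of other pathway genes called lower, 7, was 2 with the filter at the 60th percentile, which tests fewer genes, 0 with the series block and in the first series alone (limma; 6 and 2 at an unadjusted p under 0.05), 2 with myoblast arrays 2 and 3 averaged, 2 with chip lot as a random block and 1 to 14 with 1 array left out. The count over all probe sets, 1478, was 908 without the trend, 330 with the series block, 172 in the first series alone, 587 with arrays 2 and 3 averaged, 400 with chip lot as a random block and 488 to 3452 with 1 array left out. The replicate block gave 2328 called probe sets and 8 member probe sets. Deviations of equally numbered arrays correlated at 0.245, -0.18 and 0.379. Unequally numbered arrays were not compared, so these values cannot show whether the numbers in the titles pair the arrays. MCM2 was also lost with chip lot as a random block, and CDC6 203967_at was called after quantile normalization and without the trend. Direction changed only for uncalled probe sets: MCM4 212142_at was 0.155 in both series settings and CDT1 ranged from -0.564 to 0.012 with 1 array left out. The cause of these differences was not tested. Signals near the unspiked controls limit the folds of MCM2, MCM4, MCM5, MCM7 210983_s_at, CDC6, CDC45, CDT1 and ORC1.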
